A study of Mus musculus with 8 samples.

Results

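The semaphorin, ephrin, Slit and netrin guidance genes are 68 of the 31058 genes counted in this data set. Members are all genes whose symbols match these families, a rule that uses no measured value although it was set with earlier results of these data known, and comprise 34 ligands and 34 receptors. The ligands are 20 semaphorins, 8 ephrins, 3 Slits and 3 netrins. The receptors are 9 plexins, 2 neuropilins, 14 Eph receptors, 4 Robos, and the netrin receptors Dcc and Unc5, which count 5.

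Droplet single-cell RNA sequencing was performed on the dentate gyrus of Ki67TD-NES mice, which carry Nestin-GFP, Ki67-creERT2 and a tdTomato reporter, are heterozygous for the transgenes and are of mixed C57BL/6J and CD1 background. All mice received tamoxifen for 6 days and were culled on day 8, so every group shares the transgenes and the drug. There was 1 experiment at 1 month, 3 at 2 months and 3 at 6 to 8 months (6 months in the sample labels), each pooling several male and female mice, which gave 8 libraries because the first 2-month experiment was sorted into 2. Cells were enriched by flow cytometry for GFP, whose Nestin promoter marks neural stem cells (NSCs) but also other cells, and the tdTomato+ library of the first 2-month experiment is labelled as also holding double-negative cells. The 2-month libraries used Version 2 chemistry and the others Version 3, so age and chemistry cannot be told apart for 2 months.

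Of 26036 barcodes, 24376 passed the quality filter and 21085 were assigned to 1 of 10 cell types by marker genes: 1025 NSCs, 1497 astrocytes, 1224 intermediate progenitors (IPCs), 1956 neuroblasts, 6604 oligodendrocyte precursors (OPCs), 56 newly formed oligodendrocytes (NFOLs), 6779 myelinating oligodendrocytes, 394 endothelial cells, 853 mural cells and 697 microglia. Held-out markers not used for the assignment were highest in their own type for 4 of 4 astrocyte, NFOL, endothelial, mural and microglial markers, but for only 2 of 4 NSC and 2 of 4 IPC markers. Of the microglia, 651 came from the tdTomato+ library of the first 2-month experiment, and NFOLs reached 10 cells in 3 experiments. Library totals ranged from 4861883 to 43826338 UMIs (unique molecular identifiers, each a counted transcript), and 59 barcode sequences occurred in more than 1 library. Atp13a5, a held-out mural marker, stood at 1320 CPM (UMIs per 1000000 UMIs of the cell type's sum) in mural cells and at 0.0 to 1.59% of that in the other 9 types, read here as the background that free RNA gives.

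Guidance genes encode secreted or membrane-bound cues and the receptors that read them. Semaphorins signal through plexins, with neuropilins as coreceptors for most class 3 members. Ephrins and Eph receptors both sit in membranes and signal in either direction at cell contacts, Slits act through Robos, and netrins through Dcc and Unc5 proteins. These families are known for roles in positioning stem cells and newborn neurons, in oligodendrocyte migration and in vessel patterning, not all of them studied in the adult dentate gyrus.

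The bases before the transcription start of 4 members are shown because these genes were called higher in a vascular or an oligodendrocyte type and in every experiment of it: Sema7a and Plxnd1 in endothelial cells, Sema3d in OPCs and NFOLs, and Unc5b in myelinating oligodendrocytes. Unc5b was also called higher in mural cells (mean 41.9 CPM), and its mean in endothelial cells, the second highest type, was 61.0 CPM. Plxnd1 was 14.3 to 89.5 CPM in endothelial cells and 2.47 and 33.8 in the 2 experiments with microglia. Its lowest endothelial value came from fewer than 3 UMIs, in a sum of 70127 UMIs over 26 cells. They were chosen among members with 1 RefSeq start and no annotated exon in the window. Each is the 250 bases upstream in RefSeq on GRCm38.p6: Sema7a at chr9:57939862-57940111 and Sema3d at chr5:12382916-12383165 on the plus strand, and Plxnd1 at chr6:115995006-115995255 and Unc5b at chr10:60831582-60831831 on the minus strand. Capitals mark GGAAG, the core of ETS factor sites, and ACAAAG, a SOX core, searched on both strands, and no match of one overlaps a match of the other.
Sema7a: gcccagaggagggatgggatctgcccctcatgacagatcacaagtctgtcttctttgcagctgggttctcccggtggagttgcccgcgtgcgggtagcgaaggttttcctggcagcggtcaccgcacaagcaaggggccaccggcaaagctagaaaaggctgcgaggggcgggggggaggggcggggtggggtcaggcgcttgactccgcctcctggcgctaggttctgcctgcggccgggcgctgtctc
Plxnd1: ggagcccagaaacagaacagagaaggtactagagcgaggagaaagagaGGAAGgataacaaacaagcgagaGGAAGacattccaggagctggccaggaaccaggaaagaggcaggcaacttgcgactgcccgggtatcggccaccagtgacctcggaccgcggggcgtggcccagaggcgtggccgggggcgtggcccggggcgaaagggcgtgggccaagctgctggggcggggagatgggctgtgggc
Sema3d: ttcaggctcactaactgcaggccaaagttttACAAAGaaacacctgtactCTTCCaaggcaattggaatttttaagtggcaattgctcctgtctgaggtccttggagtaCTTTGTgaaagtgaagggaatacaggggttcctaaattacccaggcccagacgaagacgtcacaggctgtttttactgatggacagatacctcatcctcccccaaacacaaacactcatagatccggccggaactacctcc
Unc5b: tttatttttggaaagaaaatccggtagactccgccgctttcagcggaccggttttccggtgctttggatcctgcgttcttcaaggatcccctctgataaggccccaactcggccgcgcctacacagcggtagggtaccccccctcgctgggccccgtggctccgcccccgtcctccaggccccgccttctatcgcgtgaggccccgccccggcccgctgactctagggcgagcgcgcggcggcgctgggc
Plxnd1 held 2 matches of GGAAG, Sema3d held 1 of GGAAG and 2 of ACAAAG, and Sema7a and Unc5b held neither. GGAAG was present in 64.1% and ACAAAG in 16.5% of 32851 upstream windows of this length. A promoter entry was found for 58 of the 68 members.

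Levels were compared on UMIs summed per experiment and cell type, with the experiment as the replicate. The 68 members had 158645 UMIs in assigned cells, and 55 passed the filter on low counts. The 13 below it were Sema3a, Sema3b, Sema3f, Efna3, Epha1, Epha6, Epha8, Epha10, Slit1, Slit3, Robo3, Ntn5 and Unc5a, with 5 to 652 UMIs. A gene could pass through 1 type in which it was high, so counts below describe members that passed.

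**Figure D1:**
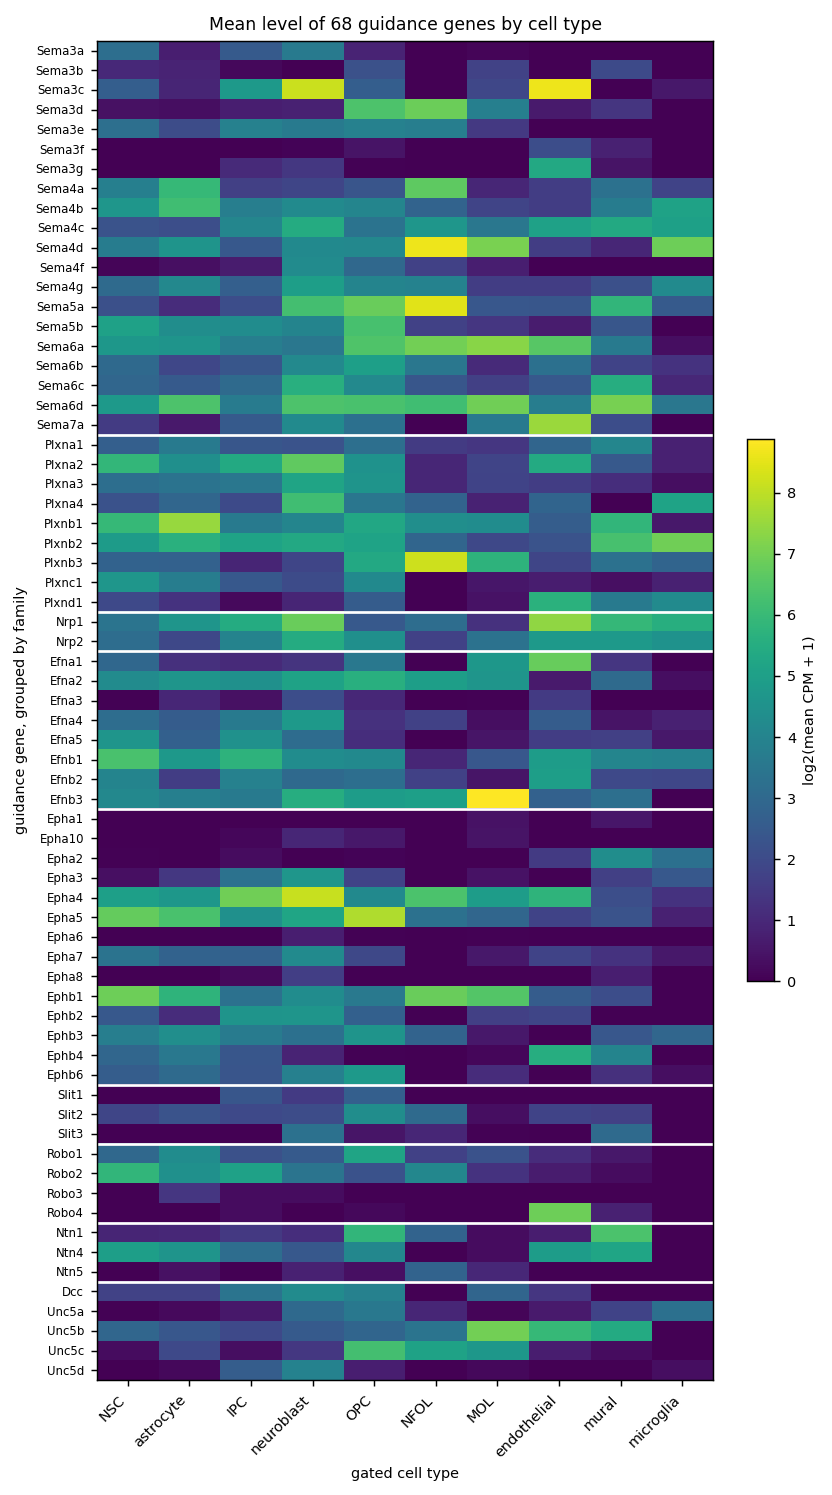
Mean CPM over experiments, as log2(mean CPM + 1), for the 68 members (rows, by family) in 10 cell types (columns). Rows are to be read across, since levels of different genes are not compared; Robo4 is bright in 1 column, whereas Sema6d is spread over several.

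Each type was set against the mean of the other types (microglia left out), with edgeR's quasi-likelihood test and Benjamini-Hochberg adjustment over 12118 genes. Members called higher numbered 33 of 55 in neuroblasts, where 37.6% of all genes were called higher, and 32 in OPCs, against 39.9% of all genes. They numbered 24 in astrocytes (33.8% of all genes), 21 in IPCs (34.9%), 20 in NSCs (28.3%), 17 in endothelial cells (20.5%), 16 in mural cells (24.7%), 13 in myelinating oligodendrocytes (33.7%) and 10 in NFOLs (13.5%). By mean CPM, 15 of the 55 were highest in neuroblasts, 10 in OPCs, 9 in endothelial cells and 0 in IPCs. No share of all genes stands beside this ranking, so it only describes the members.

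The genes lie on GRCm38 at chromosome 11, 69554092 to 69560205 for Efnb3, at chromosome 1, 77367185 to 77515088 for Epha4, at chromosome 5, 17574281 to 17730268 for Sema3c and at chromosome 9, 37401897 to 37415115 for Robo4 (GENCODE M21). Same-strand exons of another gene overlap Sema4a (the microRNA gene Mir7011), Plxnc1 (Gm48718) and Nrp1 (the microRNA gene Mir1903), so their counts may hold reads of that gene.

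Among ephrins, which are the membrane ligands of Eph receptors, Efnb3 stood out in myelinating oligodendrocytes. Its level there was 381 CPM at the lowest, 475 at the median and 530 at the highest of 7 experiments, with a mean of 468 ± 60.2 (SD, n = 7). The next type, neuroblasts, ranged from 23.3 to 80.8 CPM, so the 2 types did not overlap. Efnb3 was higher than the mean of the other types by 5.67 ± 0.11 on the log2 scale (SE, edgeR adjusted p = 9.3e-53). Against NFOLs the difference was 5.17 ± 0.38 (edgeR adjusted p = 2.7e-19), with NFOL values of 72.0, 13.5 and 8.58 CPM from 2 to 4 UMIs each.

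Efnb1 and Efna5 were highest in NSCs. Efnb1 was 78.4 ± 23.0 CPM (SD, n = 7) in NSCs, 52.1 ± 15.5 in IPCs and 25.8 in astrocytes, and the ranges of NSCs and IPCs overlapped. Efna5 was 23.9 ± 12.1 CPM in NSCs and 21.4 ± 13.6 in IPCs, with overlapping ranges. Efna1 was highest in endothelial cells, with 50.6 to 175 CPM (median 85.6), above every experiment of myelinating oligodendrocytes (15.6 to 38.4). In mural cells Efna1 averaged 1.67 CPM. It was higher in endothelial than mural cells by 4.74 ± 0.45 (SE, edgeR adjusted p = 2.7e-14).

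Of the Eph receptors, Epha4 was highest in neuroblasts. It ranged from 236 to 305 CPM with a median of 301 in neuroblasts and from 97.3 to 171 in IPCs, and these groups did not overlap. In NFOLs, the third type, Epha4 averaged 81.8 ± 24.4 CPM (SD, n = 3). Epha5 was highest in OPCs at 223 ± 56.3 CPM (SD, n = 7), with 109 ± 52.9 in NSCs. In NSCs, Epha5 was at 0 in the third 2-month experiment, which held 31 NSCs, and between 105 and 159 CPM in the others. Ephb1 was 119 ± 47.2 CPM in NSCs, 114 ± 70.9 in NFOLs (n = 3) and 88.5 ± 13.1 in myelinating oligodendrocytes, and these 3 types overlapped.

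**Figure D2:**
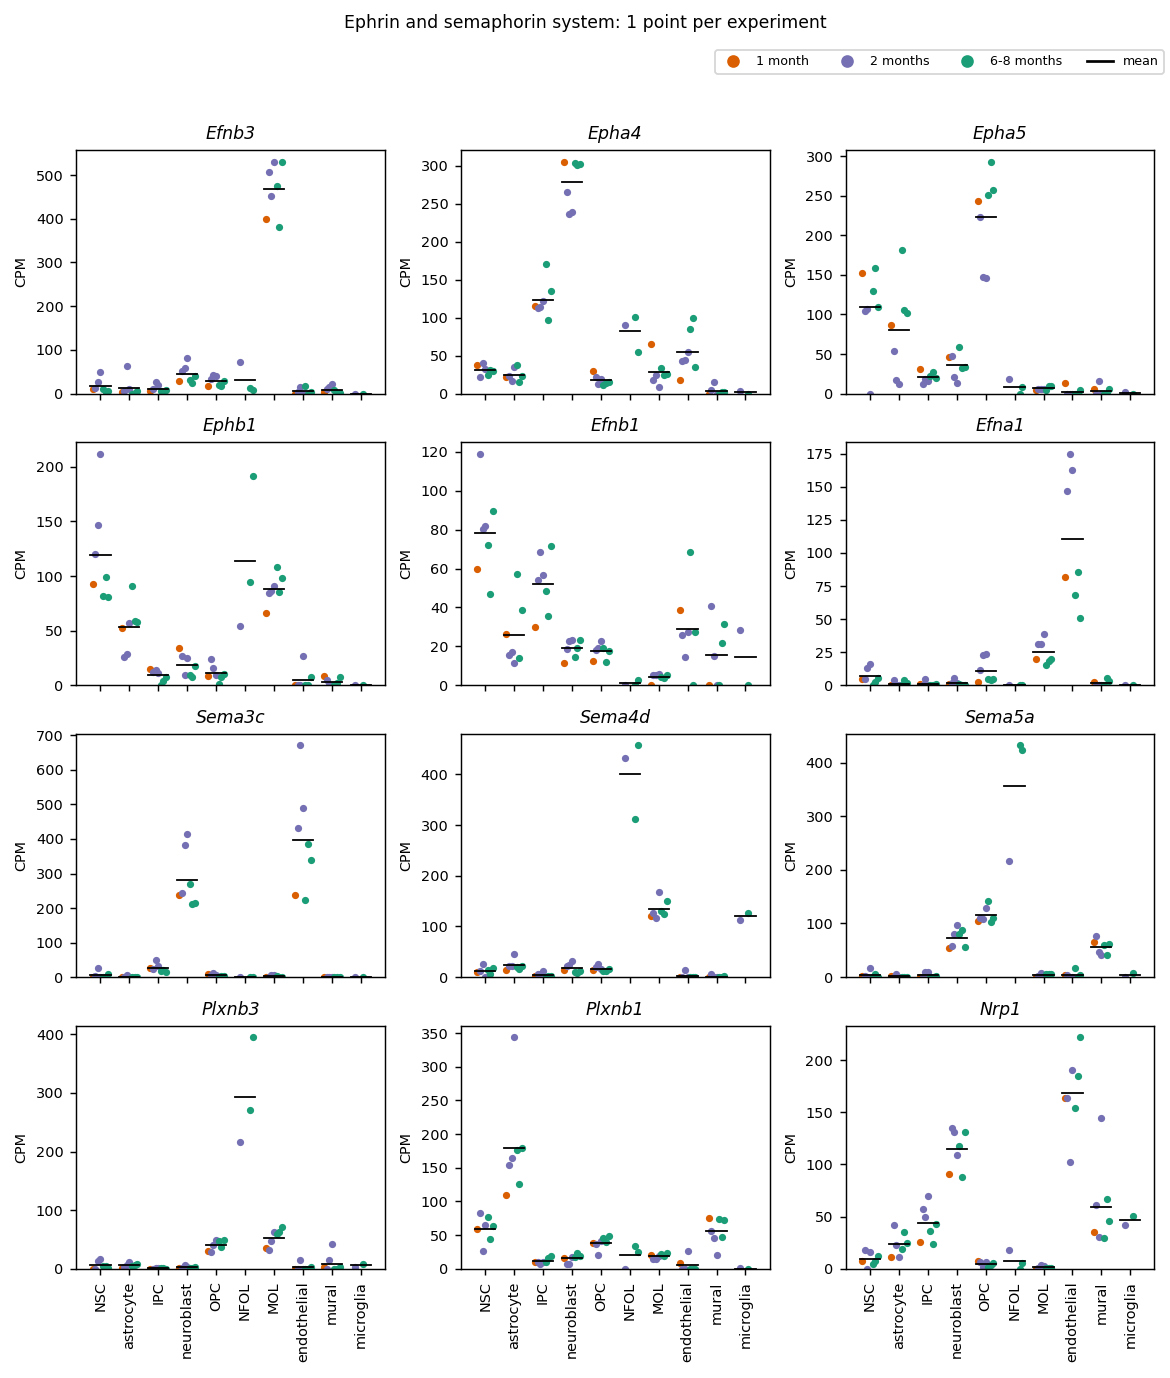
CPM per experiment (points, coloured by age) and mean (bar) in 10 cell types for 12 ephrin and semaphorin system members, each panel on its own linear axis. All 7 myelinating oligodendrocyte points of Efnb3 lie at 381 CPM or more.

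Of 17 semaphorins tested, the ligands of plexins, 13 were called higher in neuroblasts (37.6% of all genes), 11 in OPCs (39.9%) and 6 in astrocytes (33.8%). There were 6 in NFOLs (13.5%), 6 in endothelial cells (20.5%) and 5 in myelinating oligodendrocytes (33.7%). NSCs (28.3%), IPCs (34.9%) and mural cells (24.7%) had 4 each. The percentages are the share of all genes called higher in that type. Sema3c, a secreted class 3 semaphorin, was 222 to 671 CPM in endothelial cells (median 385) and 211 to 414 in neuroblasts (median 243), and the 2 overlapped. No Sema3c UMI was found in mural cells in any experiment, so its pooled endothelial level of 363 CPM was at least 237-fold higher, taking a floor of 3 UMIs over the group. Sema7a, a membrane-anchored semaphorin, was 90.6 to 274 CPM in endothelial cells and at most 29.7 in neuroblasts, the next type.

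Sema4d, Sema5a, Sema3d and Sema4a were highest in NFOLs. Sema4d was 432, 311 and 457 CPM in the 3 NFOL experiments, above all 7 myelinating values (116 to 167). It was 113 CPM in microglia of the first 2-month experiment and 127 in those of the first 6 to 8 month experiment, the one that does not rest on the tdTomato+ library. Sema5a was 216 to 432 CPM in NFOLs and 102 to 142 in OPCs. Sema4a was 97.2 to 108 CPM in NFOLs and 43.4 to 77.3 in astrocytes. Sema3d was 90.0 to 142 CPM in NFOLs, overlapping OPCs (59.4 to 109).

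Plexins and neuropilins, the receptors, were highest in several different types. Plxnb3 was 216, 270 and 395 CPM in NFOLs and 32.2 to 70.7 in myelinating oligodendrocytes, with no overlap. Plxnb1, a class B plexin, was 109 to 344 CPM in astrocytes (median 165) and 26.7 to 83.6 in NSCs. Plxna4 was 70.6 ± 31.1 CPM in neuroblasts and 3.01 in IPCs. Nrp1, a coreceptor of class 3 semaphorins and VEGF, was 169 ± 37.2 CPM in endothelial cells and 115 ± 19.3 in neuroblasts, the same 2 types that were highest for Sema3c, and their ranges overlapped. Plxnb2 was highest in microglia, with 77.0 CPM in the first 2-month experiment and 169 in the first 6 to 8 month experiment.

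Robo4, the Robo of endothelial cells, averaged 119 ± 38.3 CPM there (SD, n = 7). The next means were 0.77 CPM in mural cells and 0.237 in IPCs. Robo4 passed the filter through endothelial cells, so its test against the other types was favoured from the start. Its log2 difference from them, 9.94 ± 0.34 (SE), rests on levels near 0 elsewhere and gives no reliable size. In endothelial cells Robo4 ranged from 54.5 to 185 CPM with a median of 120 over 7 experiments, from 2 to 29 UMIs each. In mural cells it was 5.39 CPM at 1 month (2 UMIs) and 0 in the other 6 experiments. The difference from mural cells was 6.85 ± 0.51 (SE, edgeR adjusted p = 2.8e-16), but DESeq2 gave an adjusted p of 0.12. Robo2 was highest in NSCs (26.0 to 131 CPM, median 43.5), overlapping IPCs (24.9 to 52.9). Robo1 was highest in OPCs (28.7 to 41.1), overlapping astrocytes (9.86 to 34.4). Their ligand Slit2 was highest in OPCs at 19.6 ± 6.15 CPM.

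Netrins and their receptors were highest in different types. Ntn1, the ligand of Dcc and Unc5 receptors, was 20.8 to 134 CPM in mural cells (median 88.1) and 33.6 to 70.9 in OPCs (median 57.5), overlapping. Its lowest mural value came from fewer than 3 UMIs. Endothelial cells averaged 0.617 CPM of Ntn1. Unc5c was 64.2 to 92.5 CPM in OPCs and 18.0 to 47.3 in NFOLs. Unc5b was 96.2 to 148 CPM in myelinating oligodendrocytes and 27.2 to 90.7 in endothelial cells. Dcc, the attractive netrin receptor, was low throughout: 18.2 ± 6.26 CPM in neuroblasts and 13.8 ± 3.83 in OPCs, which overlapped.

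**Figure D3:**
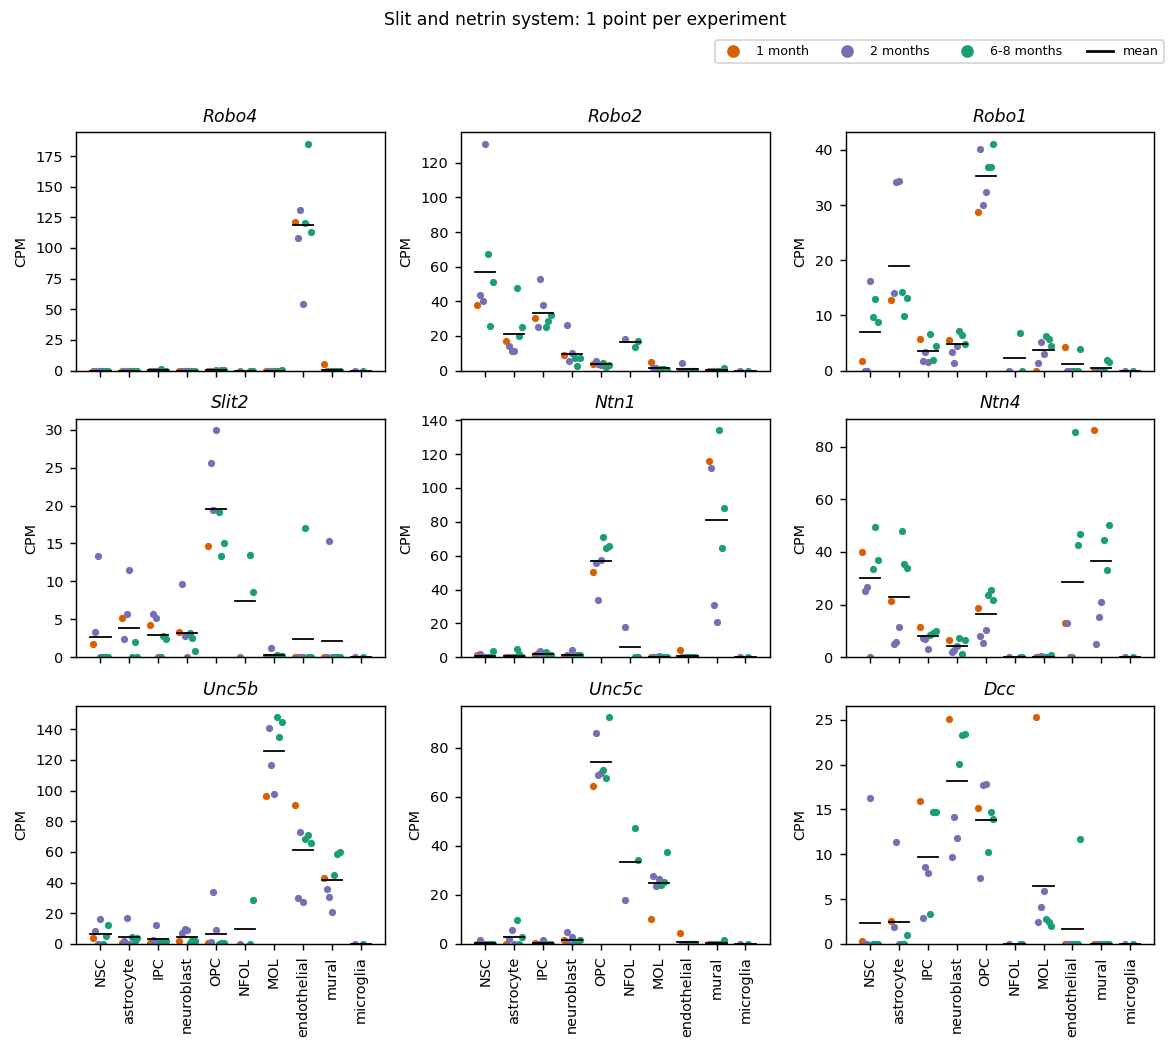
CPM per experiment (points, coloured by age) and mean (bar) in 10 cell types for 9 Slit and netrin system members, each panel on its own linear axis. Robo4 lies at 54.5 CPM or more in every endothelial experiment and at 5.39 or less in mural cells.

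The remaining members are given by the type with their highest mean. In neuroblasts these were Efna4, Epha3, Epha7, Ephb2, Nrp2, Plxna2, Plxna3, Sema4c, Sema4f, Sema4g, Sema6c and Unc5d. Efna4 (19.0 to 41.0 CPM, against 7.9 to 15.6 in IPCs) and Sema4f (12.8 to 23.3, against 1.77 to 11.0 in OPCs) did not overlap the next type. Sema4c was 43.1 ± 8.9 CPM in neuroblasts and 40.8 ± 23.3 in mural cells, with overlapping ranges. Near ties with overlapping ranges were also Ephb2 (23.5 CPM, and 22.9 in IPCs) and Sema6c (47.0, and 44.9 in mural cells). In OPCs these were Efna2, Ephb3, Ephb6, Sema3e, Sema5b and Sema6b. Ephb6 (20.8 to 38.0 CPM) alone among them lay wholly above the next type, neuroblasts (7.3 to 18.6). Sema3e averaged 13.8 CPM in both OPCs and IPCs. In endothelial cells these were Efnb2, Ephb4, Plxnd1 and Sema3g. Sema3g, a class 3 semaphorin, was 40.4 ± 23.3 CPM there and 1.72 ± 0.975 in neuroblasts, but was at 0 in 1 endothelial experiment. Ephb4 and its ligand Efnb2, known for marking veins and arteries, were 44.6 ± 20.1 and 30.1 ± 19.5 CPM in endothelial cells. In mural cells these were Epha2, Ntn4, Plxna1 and Sema6d, with Sema6d at 131 ± 46.1 CPM and 122 ± 34.3 in myelinating oligodendrocytes. Ntn4 was 36.5 ± 27.1 CPM in mural cells and 30.3 ± 15.7 in NSCs, with overlapping ranges. Plxnc1 was highest in NSCs, Sema4b in astrocytes and Sema6a in myelinating oligodendrocytes, at 24.4 ± 10.1, 70.5 ± 28.1 and 156 ± 37.5 CPM. Of the members below the filter, Sema3a was highest in neuroblasts at 11.7 ± 3.84 CPM and Unc5a in OPCs at 10.8 ± 2.81.

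Along the lineages, more members rose than fell between IPCs and neuroblasts. From IPC to neuroblast, 29 members were higher and 6 lower of 55, where 29.7% of all genes were higher and 26.2% lower. The median member difference was 0.81 on the log2 scale, against 0.06 for all genes. Higher members included 11 of 17 semaphorins, 6 of 10 Eph receptors, 4 of 9 plexins, both neuropilins and 3 of 4 Dcc and Unc5 receptors. Sema5a rose by 5.12 ± 0.27 (SE, edgeR adjusted p = 1.4e-26), from a mean of 3.3 to 73.5 CPM, and Plxna4 by 4.5 ± 0.24 (edgeR adjusted p = 4.2e-25). Sema4f rose by 4.04 ± 0.36 and Sema3c by 3.44 ± 0.18, each in 7 of 7 experiments. The members that fell in every experiment were Ephb4, Efnb1 and Efnb2. Efnb1 fell by 1.48 on the log2 scale (SE 0.18, edgeR adjusted p = 9.6e-11).

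From NSC to IPC, 11 members were higher and 17 lower, against 27.8 and 29.7% of all genes. The IPC markers included the cell cycle genes Mki67, Top2a, Cdk1 and Ube2c, so cycling NSCs could be assigned to IPCs. How much this adds to any comparison with IPCs was not tested. Ephb1 fell by 3.36 on the log2 scale (SE 0.27, edgeR adjusted p = 5.1e-18), from 119 to 9.02 CPM, and Plxnc1 and Plxnb1 also fell. Sema3c, Ephb2 and Epha3 were higher in IPCs, and Unc5d, with no UMI in NSCs, was at least 7.42-fold higher at 4.24 pooled CPM. From NSC to astrocyte, 13 members were higher and 9 lower (18.3 and 13.8% of all genes). This split was 12 and 12 with total UMIs, where 1532 of all genes were higher and 2670 lower. It was 8 and 10 without the 1-month experiment and 6 and 8 with Version 2 alone. No share of all genes stands beside these last splits, so they only describe the members. Sema4a rose by 2.22 ± 0.23 (SE, edgeR adjusted p = 2e-12) and Plxnb1 by 1.5 ± 0.16, and Efnb2, Efna5, Efnb1 and Robo2 fell. Efna5 did not pass with Version 3 libraries alone (adjusted p = 0.15).

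In OPCs against NSCs, 26 members were higher and 17 lower (29.4 and 22.7% of all genes). This compares separately assigned cell types, and whether OPCs arise from NSCs was not tested. Unc5c was 74.3 CPM in OPCs and 0.239 in NSCs, Sema3d 83.0 and 0.324, Sema5a 115 and 3.48, and Ntn1 56.9 and 0.911, and each was higher in 7 of 7 experiments. Efna5, Robo2, Ephb1 and Efnb1 were lower in OPCs, Efna5 by 5.03 on the log2 scale (SE 0.43, edgeR adjusted p = 9.8e-17).

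**Figure D4:**
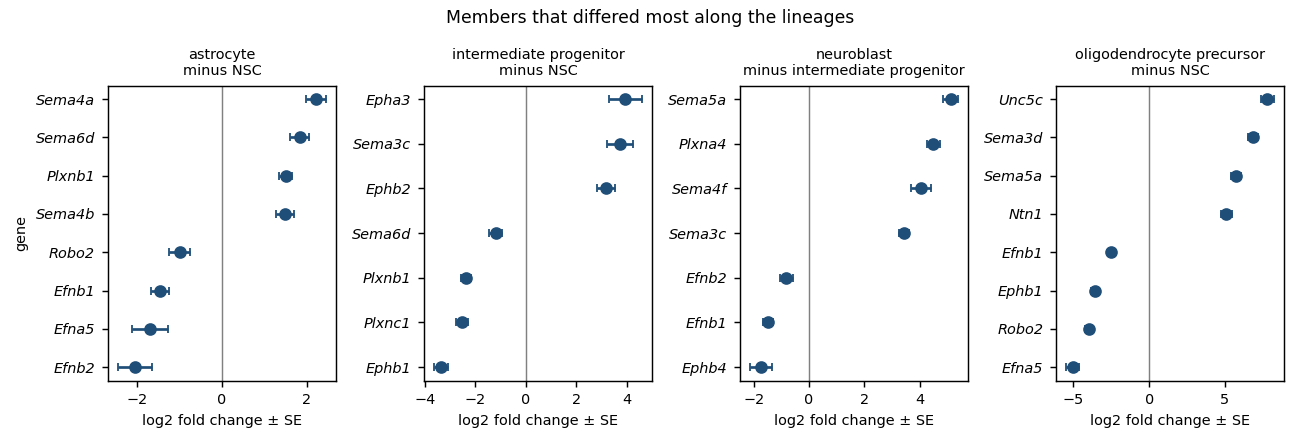
Log2 fold change (x axis) with its SE for named members in 4 comparisons between cell types. Genes with no UMI in 1 type (Unc5d) are left out. Ephb1 is lower in IPCs than in NSCs by 3.36 and Sema5a is higher in neuroblasts than in IPCs by 5.12.

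NFOLs were compared with their neighbours in 3 experiments. From OPC to NFOL, 10 members were higher and 19 lower (9.99 and 22.1% of all genes), and the count fell to 12 without the third 6 to 8 month experiment. Sema4d was higher by 4.75 ± 0.19 (SE, edgeR adjusted p = 7.4e-33), and Sema4a, Ephb1 and Plxnb3 also rose. Ephb6, Ntn4, Plxnc1 and Dcc had no UMI in NFOLs, whose floor of 3 UMIs over the group is 5.42 CPM, so they were at least 5.33-fold, 3.98-fold, 3.37-fold and 2.63-fold lower. Without the third 6 to 8 month experiment, edgeR's adjusted p was 0.11 for Ntn4, 0.06 for Plxnc1 and 0.22 for Dcc. From NFOL to myelinating oligodendrocyte, 5 members were higher and 11 lower (19.6 and 11.0% of all genes). The balance of all genes depended on the scaling, with 2378 higher and 1335 lower here, 1333 and 2264 with DESeq2 and 1217 and 2425 with total UMIs, while members were 5 and 13 with DESeq2 and 5 and 12 with total UMIs. Sema5a fell by 5.78 on the log2 scale (SE 0.25, edgeR adjusted p = 2.9e-31), and Sema4a and Sema3d also fell. Unc5b rose by 3.33 ± 0.62, and Efna1, with no UMI in NFOLs, was at least 4.02-fold higher.

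Between the vascular types, 15 members were higher in endothelial and 10 in mural cells (14.9 and 17.4% of all genes). Sema3c, Sema7a, Robo4 and Efna1 were among those higher in endothelial cells. Higher in mural cells were Ntn1, lower in endothelial cells by 6.3 on the log2 scale (edgeR adjusted p = 8e-13), and Sema6c, Plxnb2 and Sema5a.

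Downstream of the receptors, a list of 44 transducers (among them collapsin response mediators and kinases) was counted. From IPC to neuroblast, 27 of 42 tested were higher and 2 lower, where 29.7% of all genes were higher and 26.2% lower, with a median of 0.71 against 0.06 for all genes. Dpysl4 was higher by 4.37 ± 0.28 and Dpysl5 by 2.13 ± 0.16, both collapsin response mediators. In OPCs against NSCs, 20 were higher and 11 lower, where 29.4 and 22.7% of all genes were. A list of 18 coreceptors and further ligands had 7 of 17 higher and 5 lower from IPC to neuroblast, against the same 29.7 and 26.2%, with L1cam higher by 4.24 ± 0.27 and Rgma lower, falling by 3.09 on the log2 scale.

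Age was compared between the 1-month experiment and the 3 experiments at 6 to 8 months, with the 2-month experiments in the fit. In NSCs, neuroblasts and astrocytes, 0 of 20, 44 and 24 tested members were called by edgeR, and DESeq2 also called 0. Of all genes, 0.337% were called higher and 0.157% lower in NSCs, 0.0383 and 0.0% in neuroblasts, and 0.0928 and 0.0928% in astrocytes. At an unadjusted p under 0.05 there were 2, 3 and 1 members, where 4.41, 4.21 and 6.08% of all genes had such a p. With 1 experiment at 1 month, these counts do not show that the members were unchanged with age. In OPCs, 1 member was higher and 1 lower of 43 tested, where 0.361% of all genes were higher and 0.273% lower.

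**Figure D5:**
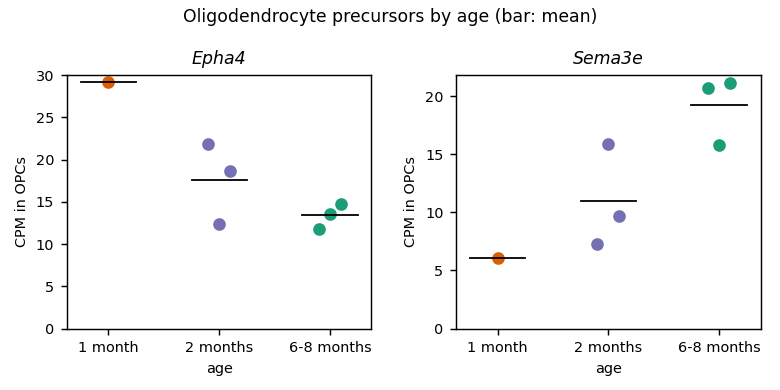
CPM in OPCs per experiment (points) by age, with the mean (bar), for Epha4 and Sema3e. The 1-month value is 29.2 CPM for Epha4 and 6.08 for Sema3e.

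Epha4 in OPCs was 29.2 CPM at 1 month, 12.4 to 21.9 at 2 months and 11.8 to 14.8 at 6 to 8 months, and fell by 1.12 on the log2 scale (SE 0.25, edgeR adjusted p = 0.040). Sema3e, a class 3 semaphorin that binds Plxnd1, was 6.08, 7.31 to 15.9 and 15.8 to 21.1 CPM and rose by 1.57 ± 0.35 (edgeR adjusted p = 0.030). Both rest on a single 1-month experiment. DESeq2 gave adjusted p-values of 0.65 for Epha4 and 0.35 for Sema3e, and neither passed without the second or without the third 6 to 8 month experiment.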

How the data were processed

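Single-cell RNA sequencing of sorted dentate gyrus cells gave 8 libraries in 7 experiments. The matrix deposited by the authors holds raw UMI counts, for which they mapped reads with Cell Ranger 3.0.2 on a custom mm10-3.0.0 genome with reporter elements and merged the libraries without normalization (their notes also list cutadapt 1.18 and Seurat). The suffix of each barcode names its library, and 0 suffixes were unmapped.

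Kept barcodes had more than 500 genes, and less than 10% of their UMIs were mitochondrial. A cell was assigned to the list with most markers detected (lists scaled to 12 genes), with at least 3 markers and 2 more than any other list. Cells with 3 or more markers of myelinating oligodendrocytes, endothelial cells, mural cells, microglia or leptomeningeal fibroblasts outside their own lineage were removed (737). They were taken as doublets, with no doublet caller. This rule did not use NSC, astrocyte, IPC, neuroblast, OPC or NFOL markers. Mixtures of neural cells and OPCs were therefore limited only by the margin of 2 markers. Gate limits were set with marker genes and cell numbers in view, not guidance genes. Counts were summed per experiment and type (at least 10 cells) and tested in edgeR 4.0.16 with TMM scaling, filterByExpr and the experiment as a block, since all types within an experiment share its mice. Ages were fitted within a type. P-values were adjusted over all genes at a threshold of 0.05. CPM are UMIs per 1000000 UMIs of the sum. SDs are over experiments, and SEs were derived from the log2 fold change and edgeR's F statistic. Floors (3 UMIs) cover counting error only.

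The fits were tested on simulated data with known changes. Named genes were, per type, up to 5 members called higher and higher in every experiment. Added to these were up to 4 in each direction per comparison of 2 types, and every age call. Additional members are given by family and by their highest type. The members and lists were chosen with earlier results of these data known. Analyses used R 4.3.3, DESeq2 1.42.0, limma 3.58.1, Python 3.11.15, numpy 2.4.6 and pandas 2.3.3. Alternatives numbered 19, of which 2 were chosen after seeing the data: a margin of 3 markers, and leaving out the tdTomato+ library. Gene names follow the deposited feature list.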

Additional observations from a re-analysis of the deposited data

Results flagged for a closer look

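Of 40 pairs of a named gene and a type with 7 experiments, 2 had an experiment far from the others by Dixon's test, and chance alone gives such a value in about 1 in 20 groups. Robo2 in NSCs was 131 CPM in the third 2-month experiment, against 26.0 to 67.4 in the others. That value rests on 8 UMIs from 31 cells. Plxnb1 in astrocytes was 344 CPM in the same experiment, against 109 to 179 in the others, from 30 UMIs in 45 cells.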

How the results depend on the processing

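With 186 pairs of a member and a type called higher, the count was 170 to 189 leaving out 1 experiment, 178 with no replicate block, 186 without the tdTomato+ library and 140 with a margin of 3 markers. The block changed no count by over 1.5 times. A filter for UMIs in 20% of cells of a type, which tests fewer genes, gave 99 pairs, and 14, 16, 19, 23, 18 and 16 calls for astrocyte minus NSC, IPC minus NSC, neuroblast minus IPC, OPC minus NSC, NFOL minus OPC and endothelial minus mural, and 0 for OPC age. Version 2 alone, with 3 experiments, gave 121 pairs, and 14, 14, 27 and 15 calls for astrocyte minus NSC, IPC minus NSC, OPC minus NSC and endothelial minus mural. Leaving out 1 experiment gave 18 to 24 calls for astrocyte minus NSC, 24 to 30 for IPC minus NSC, 33 to 35 for neuroblast minus IPC, 38 to 43 for OPC minus NSC, 12 to 29 for NFOL minus OPC, 12 to 17 for myelinating minus NFOL and 21 to 25 for endothelial minus mural. For age it gave 0 to 1 in neuroblasts and 0 to 3 in OPCs. OPC age gave 0 calls with DESeq2 and with total UMIs, and 4 with no filter; NSC and neuroblast age gave 1 each with no filter, and neuroblast age 1 with Version 3 alone. No share of all genes stands beside these counts, so they only describe the members. The cause of these shifts was not tested.

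Of 1799 recomputed values for 102 pairs of a named gene and comparison, 1778 kept direction and call, 21 lost the call and 0 reversed. The pairs were chosen because the main fit called them, and the alternatives share its counts, so agreement was favoured from the start. Cases in which a gene was filtered out or got no adjusted p are not among the 1799. Scaling by total UMIs moved the median of all genes from 0.12 to 0.35 for OPC minus NSC, from 0.36 to -0.13 for myelinating minus NFOL and from 0.04 to -0.14 for astrocyte minus NSC. DESeq2 gave 11 members higher and 13 lower for NFOL minus OPC, with no share of all genes beside them. NFOLs could not be fitted with Version 2 alone, with sums of at least 30 cells or with a margin of 3 markers. NFOL values rest on 47 of the 56 assigned cells, in 3 experiments, and endothelial values on 394 cells.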
